A study of Mus musculus with 4 samples.

Results

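The genes described here encode the proteins of the cytosolic ribosome, measured in mouse small intestinal organoids and in the fresh crypts they were grown from. They were taken from the array by name: every gene whose symbol starts with Rpl or Rps followed by a number, p or a, without the S6 kinases (Rps6k), Rps19bp1 and pseudogenes. This gave 83 of the 28634 genes named on the array, read by 143 probes on 152 spots per array. Of the 83, 43 encode large subunit proteins, 31 small subunit proteins and 3 stalk proteins, and 6 are diverged paralogs (Rpl22l1, Rpl36al, Rpl39l, Rpl3l, Rpl7l1 and Rps27l).

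Crypts, pockets of the gut lining with the stem cells at their base, were isolated with EDTA from 2 mice and split. One portion was cultured for 1 week as organoids in Matrigel with EGF (10 to 50 ng/ml), R-spondin (500 ng/ml) and Noggin (100 ng/ml), and the other gave the fresh crypt RNA. Each array carried organoid and crypt RNA of 1 mouse in different dyes, and each mouse had 2 arrays with the dyes swapped, 4 arrays in all. Strain, genotype, sex and age are not given in the sources used here, and nothing but the culture is labelled as differing between the groups. All values below are log2 ratios of organoid over crypt signal. The 2 arrays of a mouse repeat the same 2 RNAs and were averaged, so n = 2 mice, and ± is the SD of the 2 mice. In such bulk RNA, fewer cells of a type and less RNA per cell cannot be told apart.

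A cytosolic ribosome joins a small subunit, which reads the mRNA, and a large subunit, which makes the peptide bond and holds the exit tunnel. Its proteins are needed in matched amounts. Their mRNAs start with a terminal oligopyrimidine tract, a C followed by a run of C and T, through which their translation is tied to growth signalling by mTORC1 and LARP1. Dividing cells at the base of the crypt are known for a high demand for ribosomes.

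Ribosomal protein mRNAs were higher in organoids than in crypts as a group, by a modest amount. Of the 81 genes with a tested probe, 78 had a mean ratio above 0, against 54.3% of all 15538 genes tested. The median was 0.55 (1.46-fold), against 0.02 for all genes, and the quartiles were 0.41 and 0.68. The lowest gene was at -0.22, the highest at 0.94, and 0 genes reached a 2-fold mean difference. The median over the genes was 0.46 in mouse 1 and 0.59 in mouse 2, against 0.01 and 0.03 for all genes. Both mice were above 0 for 73 of the 81.

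At an adjusted p under 0.05 (limma, Benjamini-Hochberg over all genes tested), 27 of the 81 rose in organoids, where 5.47% of all genes rose. None of the 81 fell, where 5.49% of all genes fell, and an unadjusted p under 0.05 was reached by 64, against 27.7% of all genes. The direction of the 27 held under every alternative processing tried, but the calls did not. The count was 0 with the scanner software's ratios (4.31% of all genes rose, smallest adjusted p of a member 0.0737), 0 with the authors' deposited ratios (4.27% and 0.0548) and 0 with median centring in place of loess (0.862% and 0.102). It was 6 without the filter on dim probes (1.03% of all genes), 1 on the 2 arrays with the organoid in Cy3 (2.79%) and 52 on the 2 with the organoid in Cy5 (7% of all genes). A fit of the 4 arrays with a dye effect gave 61 (12.6%), but it had no mouse term and counted the 2 arrays of a mouse as independent. A fit with the mouse as a random replicate block gave 30 (10.3%). Loess without the ribosomal protein probes gave 36 (5.77%), no background subtraction 40 (5.53%), and a filter on all 8 channels 28 (5.73%).

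**Figure D1:**
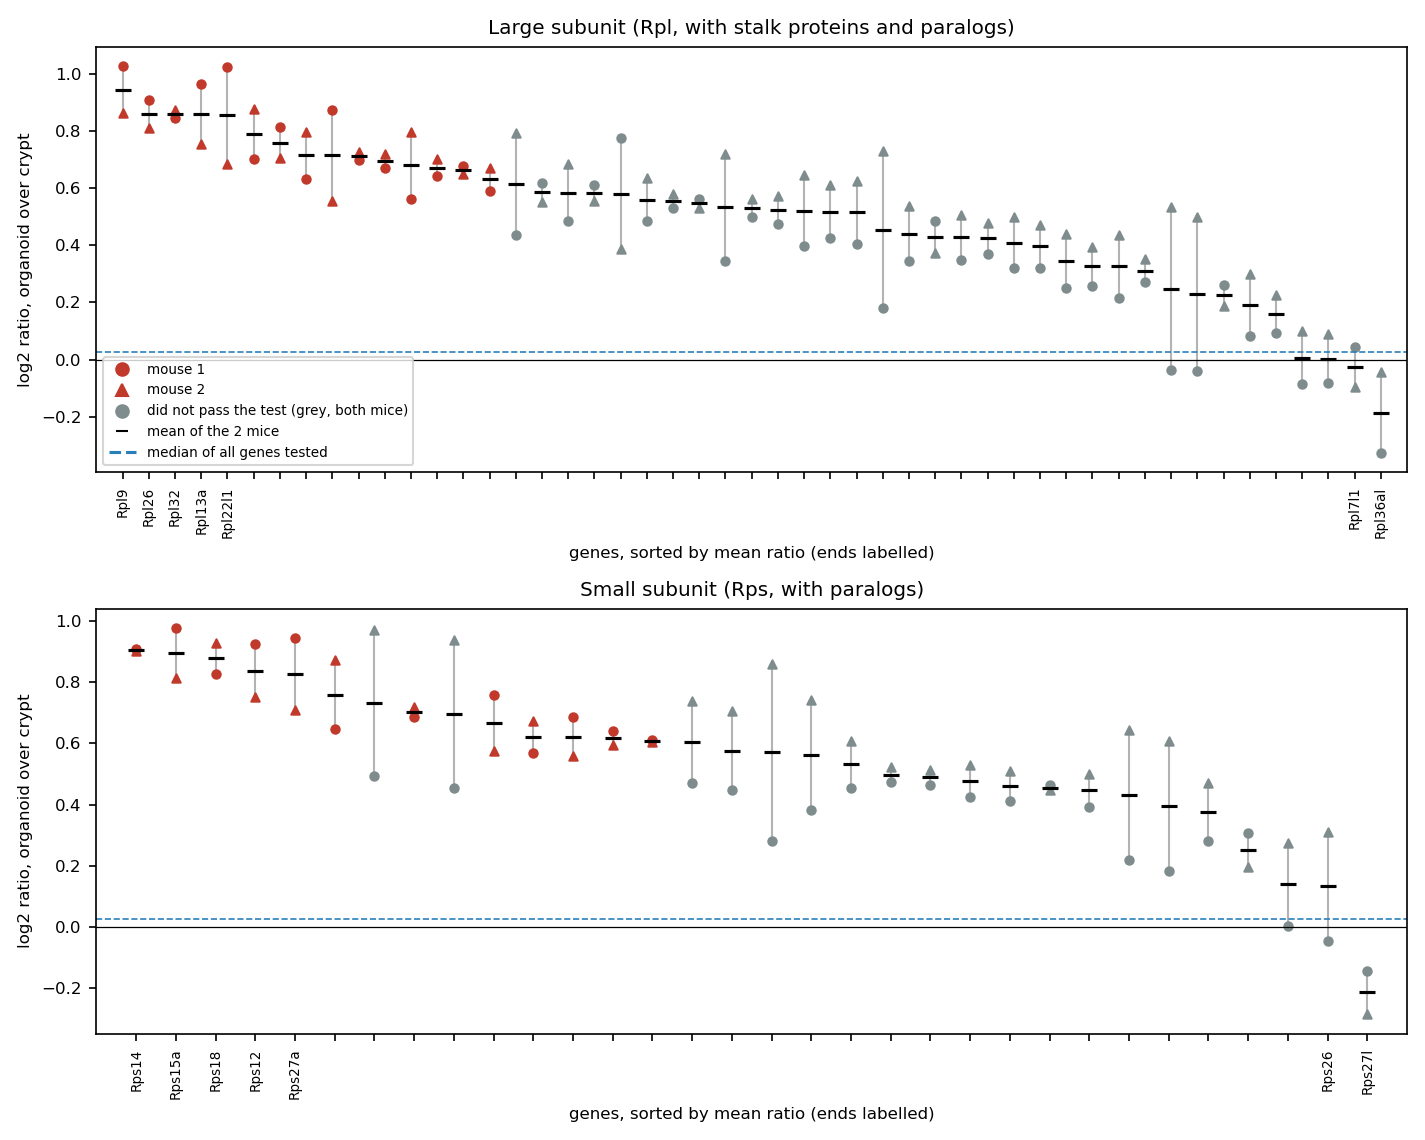
Log2 ratio of organoid over crypt (vertical axis) for each of the 81 tested ribosomal protein genes (horizontal axis, sorted within the large subunit above and the small subunit below, the 5 highest and 2 lowest of each labelled), with circles for mouse 1, triangles for mouse 2 and a bar for their mean; red genes passed the test. The means run from 0.94 (Rpl9) to -0.19 (Rpl36al) above and from 0.90 (Rps14) to -0.22 (Rps27l) below, and most lie above the median of all genes (0.02, dashed).

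Among large subunit proteins, 14 of 43 passed, all higher in organoids, and the median of the 43 was 0.53. Rpl9 was the highest gene of the family. Its ratio was 1.40 and 0.65 on the 2 arrays of mouse 1 (organoid in Cy5, then in Cy3) and 0.97 and 0.76 on those of mouse 2. All 4 arrays were thus above 0, and the mean was 0.94 ± 0.12 (1.92-fold, adjusted p = 0.0159). In normalized log2 intensity Rpl9 had 17.07 in organoids and 16.05 in crypts of mouse 1, and 17.11 in organoids and 16.25 in crypts of mouse 2. Rpl26, which in human cells also binds the p53 mRNA, had 1.45, 0.37, 0.95 and 0.67 on the same arrays, a mean of 0.86 ± 0.07 (adjusted p = 0.0189). Rpl32 stood at 1.12, 0.58, 1.23 and 0.51, with a mean of 0.86 ± 0.02 and an adjusted p of 0.0184. Rpl13a, known in human monocytes as a repressor of inflammatory mRNAs once it is released from the ribosome, had 0.86 ± 0.15. All 4 arrays were above 0 for each of these 4 genes.

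The other large subunit genes that passed had smaller ratios. Rpl36 (0.79 ± 0.12), Rpl17 at the tunnel exit (0.76 ± 0.08) and Rpl38, which in mouse is needed for translation of Hox mRNAs (0.71 ± 0.12), were followed by Rpl35a (0.71 ± 0.23), mutated in some human patients with Diamond-Blackfan anaemia. Rpl39, a small protein of the exit tunnel, had 0.71 ± 0.02. Rpl12, at the base of the stalk, had 0.69 ± 0.04, but its tested probe is placed on chromosome 10 in mm9 while the gene is on chromosome 2 in RefSeq, and whether a copy elsewhere shares its signal was not tested. Rpl36a (0.68 ± 0.17), Rpl35 (0.67 ± 0.04), Rpl34 (0.66 ± 0.02) and Rpl10a (0.63 ± 0.06) completed the 14. Their adjusted p ranged from 0.0253 (Rpl36) to 0.0420 (Rpl10a).

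Among small subunit proteins, 12 of 31 passed, all higher in organoids, with a median of 0.58 over the 31. Rps14, a platform protein that is haploinsufficient in a human myelodysplastic syndrome, had 1.48, 0.34, 1.41 and 0.39 on the 4 arrays. Its mice were nearly equal (0.91 in mouse 1, 0.90 in mouse 2), while its dye orientations stood apart, and the mean was 0.90 ± 0.01 (1.87-fold, adjusted p = 0.0160). Rps15a had 1.24, 0.72, 1.11 and 0.52, a mean of 0.90 ± 0.12 (adjusted p = 0.0181). Rps18, a head protein near the contact with the large subunit, had 1.50, 0.15, 1.54 and 0.32, so that the organoid-in-Cy5 arrays carried most of its mean of 0.88 ± 0.07. The same held for Rps12, at 1.49, 0.36, 1.47 and 0.04 with a mean of 0.84 ± 0.12. Rps27a, made as a fusion with ubiquitin, had 0.83 ± 0.17.

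Rps19, the gene most often mutated in Diamond-Blackfan anaemia, had 0.76 ± 0.16 on its brightest probe. Its other tested probe (mean log2 intensity 12.9) had 0.44 ± 0.71, with -0.06 in mouse 1 and 0.95 in mouse 2. No other tested probe of the family had mouse 2 above mouse 1 by more than 1. Rps27 had 0.70 ± 0.02. Rps25, which some viral internal ribosome entry sites need, had 0.67 ± 0.13. Rps20 (0.62 ± 0.09), Rps24 (0.62 ± 0.03) and Rps3 at the mRNA entry (0.61 ± 0.00) were among the lowest that passed. Rps3 had 0.95, 0.27, 1.05 and 0.17 on the 4 arrays and an adjusted p of 0.0446. Just outside were Rplp1 (0.59 ± 0.05, adjusted p = 0.0509) and Rpl7 (0.58 ± 0.04, 0.0512). Rps9 (0.73 ± 0.34) and Rps6, the S6 kinase substrate (0.70 ± 0.34), had larger means than many that passed, but their mice lay further apart.

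The 3 stalk proteins, which recruit the elongation factors, were all above 0 in both mice and none passed. Rplp1 was at 0.59 ± 0.05, Rplp2 at 0.56 ± 0.11 (adjusted p = 0.0606) and Rplp0 at 0.43 ± 0.11 (adjusted p = 0.111). Rplp0 differed from most of the family in its arrays: it had 0.20 and 0.49 in mouse 1 and 0.26 and 0.75 in mouse 2, lower with the organoid in Cy5. The 2 probes that the array names Arbp, an older symbol of Rplp0, were at 0.58 ± 0.17 and 0.23 ± 0.15.

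At the low end, some genes of the core family did not depart from 0. Rpl21 had -0.18, 0.01, 0.20 and -0.03 on the 4 arrays, a mean of 0.00 ± 0.12 on a dim probe, and Rpl27a had -0.05, -0.13, 0.17 and 0.02, a mean of 0.01 ± 0.13. Rps26 (0.13 ± 0.25) and Rpl31 (0.16 ± 0.09) were also near the low end. The 77 genes without the paralogs were all above 0 in the mean, but 51 of them were above 0 on all 4 arrays. Over the 81, that number was 52, against 25.4% of all genes tested. The SD between the 77 genes was 0.21, and the median SD between mice was 0.12 for the 81, against 0.15 for all genes. Across the 81 genes the 2 mice's ratios correlated with r = 0.71, against r = 0.77 over all genes; the genes share arrays and are not independent.

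Of the 4 paralogs tested, Rpl22l1 rose and the other three had ratios below 0 that did not pass. Rpl22l1, whose level is held down by Rpl22 in mouse, had 1.22, 0.83, 0.88 and 0.48 on the 4 arrays and a mean of 0.85 ± 0.24 (1.81-fold, adjusted p = 0.0267). Its parent Rpl22 had 0.54, -0.00, 0.64 and 0.06 on its brightest probe, a mean of 0.31 ± 0.06 (adjusted p = 0.201), and 0.85 ± 0.30 on its other probe, which passed when each probe was tested by itself (adjusted p = 0.0357; 34 of the family's 135 tested probes rose, against 4.5% of all probes). Rps27l, a target gene of p53, had the lowest ratio of all. It stood at -0.06 and -0.23 in mouse 1 and at -0.08 and -0.49 in mouse 2, below 0 on every array, with a mean of -0.22 ± 0.10 (adjusted p = 0.369), while its parent Rps27 rose by 0.70. Rpl36al had -0.19 ± 0.20 (adjusted p = 0.474), against 0.68 for its parent Rpl36a, and Rpl7l1, whose yeast relative acts in rRNA processing, had -0.03 ± 0.10, against 0.58 for Rpl7. With median centring in place of loess these 3 were above 0, at 0.18, 0.16 and 0.23, with the median of all genes at 0.17.

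The paralogs' probes differ from those of their parents in sequence, but the probes were compared only with each other. Whether a probe also matches the transcript of the other gene of its pair was not tested. The longest run of bases shared within a pair was 6 for Rps27 and Rps27l, 5 for Rpl36a and Rpl36al, 6 for Rpl22 and Rpl22l1, and 5 for Rpl7 and Rpl7l1, in probes of 60 bases. The Rpl22l1 probe (chr3:28706197-28706256, mm9, plus strand) and the Rpl22 probe (chr4:151704158-151704217, mm9, plus strand) are shown as the pair of which the paralog rose, with the shared run in capitals.
Rpl22l1 probe: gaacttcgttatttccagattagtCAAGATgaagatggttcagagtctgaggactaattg
Rpl22 probe: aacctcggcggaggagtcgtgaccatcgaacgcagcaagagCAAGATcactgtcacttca

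The remaining 2 paralogs had no tested probe. Rpl39l, known for its expression in the testis, was well above background in 0 of 4 organoid and 0 of 4 crypt channels on both of its probes. Rpl3l, known from heart and skeletal muscle, was well above background in 0 of 4 organoid and 1 of 4 crypt channels. Their parents Rpl39 (0.71 ± 0.02) and Rpl3 (0.45 ± 0.39, adjusted p = 0.173) were measured in every channel.

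The size of the ratios depended on the dye orientation. The median of the 81 genes was 0.82 and 0.15 on the arrays of mouse 1 (organoid in Cy5, then in Cy3) and 0.88 and 0.29 on those of mouse 2, whereas the median of all genes lay between 0.00 and 0.05 on every array. The number of the 81 above 0 was 75, 58, 79 and 70 in the same order. Every array thus had a positive median, and the organoid-in-Cy5 arrays had the larger. The part of a gene's ratio that turns with the dyes had a median of 0.28 for the 81 genes, against 0.00 for all genes with an SD of 0.15 across them. It cancels in the mean of a mouse's 2 arrays to the extent that it is equal on both.

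**Figure D2:**
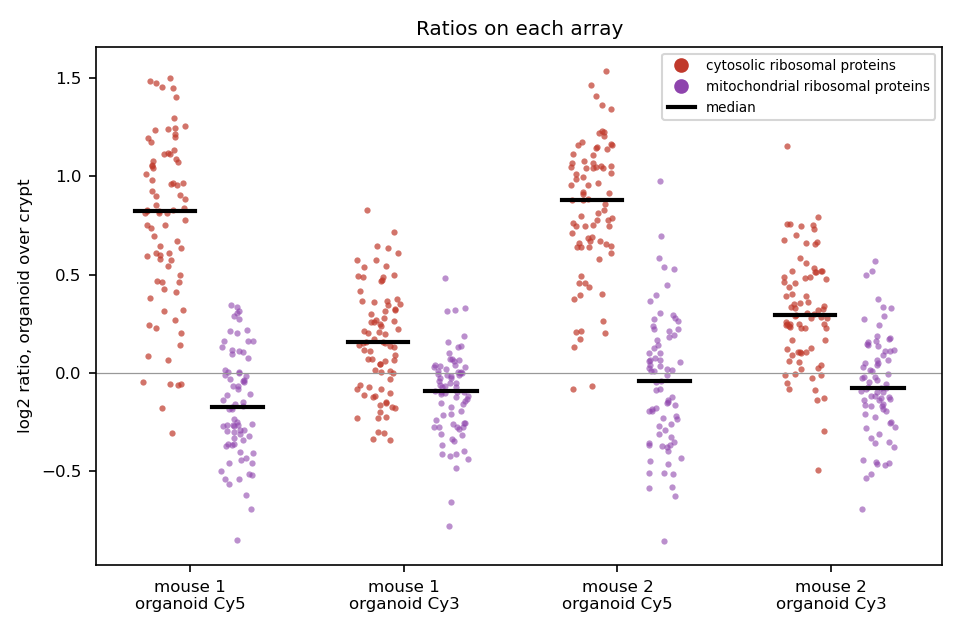
Log2 ratio of organoid over crypt (vertical axis) on each of the 4 arrays (horizontal axis) for the cytosolic ribosomal protein genes (red, 81) and the mitochondrial ribosomal protein genes (purple, 75), with bars at the medians. The cytosolic medians are 0.82, 0.15, 0.88 and 0.29, and the mitochondrial medians lie below 0 on every array.

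Ribosomal protein probes are among the brightest on the array. Of the 81 genes, 76 lay in the brightest 10% of genes by mean intensity. The ratio of a member was related to its brightness (r = 0.51 across the 81, a description only, since the genes share arrays). The 69 other genes at least as bright as the median member had a dye-dependent part with a median of 0.34 (0.28 in the 81). Their median ratio was 0.06. Of these 69 genes, 11 were higher and 12 lower in organoids, larger shares than the 5.47% and 5.49% of all genes. With median centring in place of loess, the median of the 81 was 1.04, or 0.87 above the median of all genes. With loess fitted without the ribosomal protein probes it was 0.61.

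**Figure D3:**
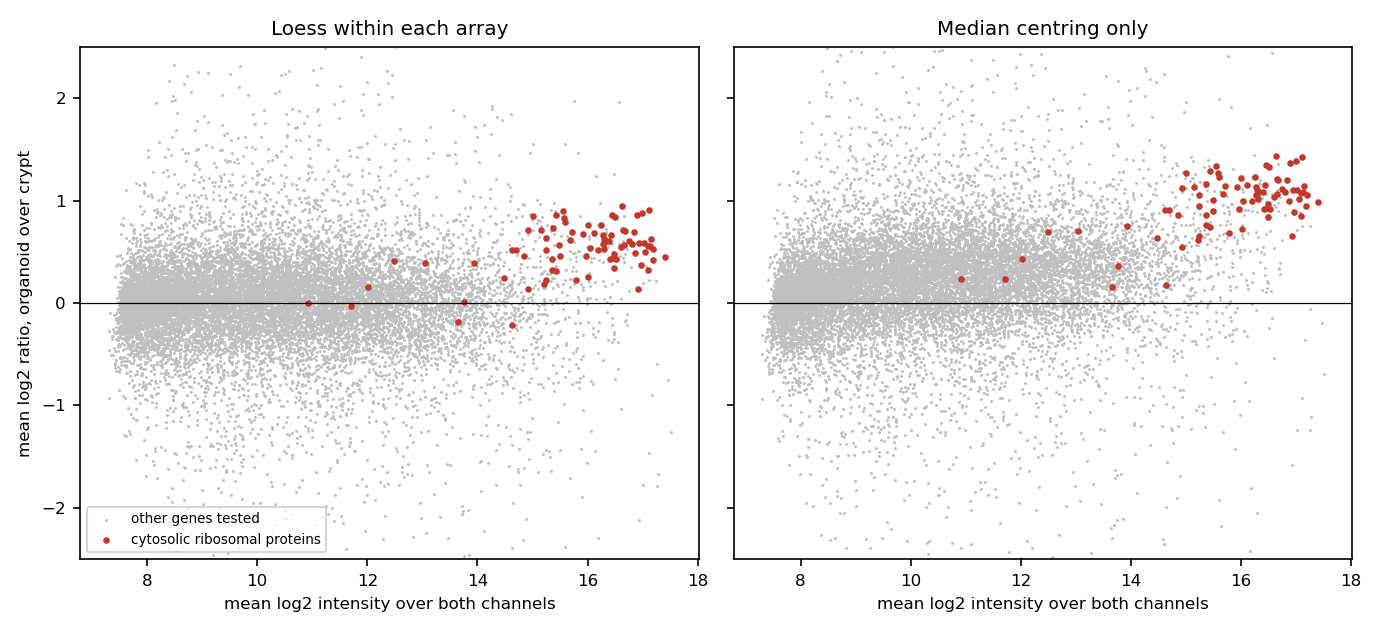
Mean log2 ratio of organoid over crypt (vertical axis, its range cut so that the genes furthest from 0 are not drawn) against mean log2 intensity (horizontal axis) for the ribosomal protein genes (red) and all other genes tested (grey), after loess (left) and after median centring only (right). The ribosomal protein genes lie mostly at the bright end and above 0 in both, with a median of 0.55 on the left and 1.04 on the right.

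Genes close to the ribosome in function were compared in the same fit. Of the ribosomal proteins that carry other names, none passed: Rack1, a scaffold of the small subunit, had 0.53 ± 0.17 (adjusted p = 0.0755), and Fau, the fusion that yields a small subunit protein, 0.36 ± 0.03 (0.147). Elongation factors and other mRNAs known for the same tract had a median of 0.43. Of these 15, 6 rose and 0 fell, against 5.47% and 5.49% of all genes. Nap1l1, a histone chaperone, was highest at 1.23 ± 0.28, followed by the nucleolar protein gene Npm1 (0.90 ± 0.32), the initiation factor gene Eif4b (0.86 ± 0.26) and the elongation factor gene Eef1b2 (0.76 ± 0.07). Eef1a1, which brings the tRNA to the ribosome, rose by 0.72 ± 0.07, whereas Eef2, which moves the ribosome along, had 0.34 ± 0.17 and did not pass (adjusted p = 0.191). With the deposited ratios, Npm1 (adjusted p = 0.0659), Eif4b (0.0624), Eef1b2 (0.0720) and Eef1a1 (0.0880) no longer passed, and Nap1l1 did (0.0281). With median centring none of these 5 passed (Nap1l1 0.0812).

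Genes that build ribosomes are read against the 5.47% of all genes that rose and the 5.49% that fell. Of 40 assembly and nucleolar factors tested, 1 rose (Npm1, which is also in the list above), 0 fell, and the median was 0.10. Of 13 genes for RNA polymerase I and its factors, 0 rose and 0 fell, with a median of 0.01. The 75 mitochondrial ribosomal proteins, which belong to a separate ribosome, had a median of -0.12, with 25 above 0 and none that passed in either direction. Among 15 regulators of ribosome synthesis, 2 rose and 1 fell. Myc, a transcription factor that drives ribosome production, had 0.79, 0.77, 1.07 and 0.50 on the 4 arrays, a mean of 0.78 ± 0.00 (adjusted p = 0.0227, 0.0563 with the deposited ratios and 0.223 with median centring). Its partner Max fell by 0.92 ± 0.17 (adjusted p = 0.0187, 0.620 with median centring). Eif4ebp1, the mTORC1 substrate that holds back cap-dependent translation, rose by 1.70 ± 0.18 (3.25-fold, adjusted p = 0.0042), and passed also with median centring (0.0434) and with the deposited ratios (0.0145).

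**Figure D4:**
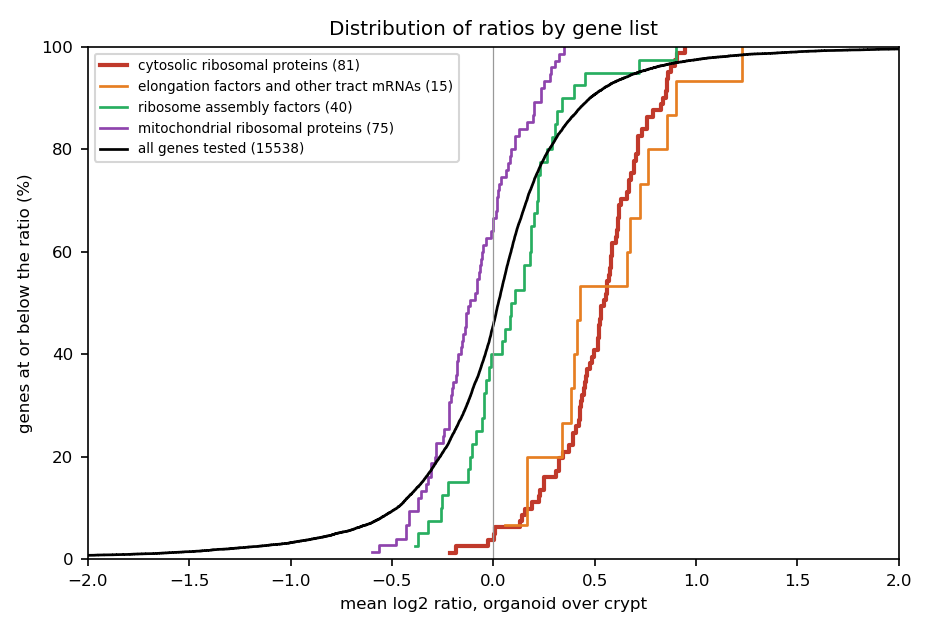
Cumulative share of genes (vertical axis, %) at or below a given mean log2 ratio of organoid over crypt (horizontal axis, shown from -2 to 2) for the ribosomal proteins, 3 related lists and all genes tested. The cytosolic ribosomal proteins (median 0.55) lie to the right of all genes (0.02). So do elongation factors and other mRNAs known for the tract (0.43), while the mitochondrial ribosomal proteins (-0.12) lie to the left.

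The starts of the genes were searched for the tract in RefSeq sequence (GRCm38.p6), which held 63 of the 83 genes. A tract was a C followed by at least 4 bases that are C or T, on the gene's strand, starting within 10 bases of the annotated start. A run that began further upstream was counted from its first C in this window, and a tract could end before the annotated start. Both hold for Rps27l. Such a tract was found in 38 of the 63 genes (60.3%), against 34.3% of 26963 other genes. A tract of at least 8 bases was found in 24 (38.1%), against 9.37%. Mitochondrial ribosomal proteins had the longer tract in 7.58% of 66 genes. Of the elongation factors and other mRNAs known for the tract, 9 genes were found. A tract was in 5 of these 9 (55.6%) and the longer one in 3 (33.3%). Among the 57 core genes found, the median ratio was 0.66 in 23 with the longer tract, 0.45 in 11 with a shorter tract and 0.53 in 23 with none, and the ranges overlapped. Annotated starts can differ from those used in the gut, so a missing match says only that these letters are not in this window. The 40 bases around the start are given below for 4 genes near the top, for Rpl27a near 0, and for 3 paralogs, 20 bases on each side, with the longest tract in capitals. The coordinates, in GRCm38.p6, are chr5:65391412-65391451 (Rpl9), chr17:33955646-33955685 (Rps18), chr7:118116128-118116167 (Rps15a) and chr10:23787190-23787229 (Rps12) on the minus strand, chr7:109519175-109519214 (Rpl27a), chr3:28805488-28805527 (Rpl22l1) and chr9:66946066-66946105 (Rps27l) on the plus strand, and chr12:69184048-69184087 (Rpl36al) on the minus strand.
Rpl9 start: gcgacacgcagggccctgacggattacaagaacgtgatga
Rps18 start: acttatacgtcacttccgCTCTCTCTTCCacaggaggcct
Rps15a start: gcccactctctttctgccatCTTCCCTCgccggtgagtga
Rps12 start: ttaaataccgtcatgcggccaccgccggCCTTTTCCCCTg
Rpl27a start: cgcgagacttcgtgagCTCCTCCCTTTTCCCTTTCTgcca
Rpl22l1 start: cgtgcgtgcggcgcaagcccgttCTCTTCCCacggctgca
Rps27l start: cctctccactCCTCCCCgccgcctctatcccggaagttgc
Rpl36al start: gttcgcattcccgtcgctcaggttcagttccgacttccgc
The longest of these tracts, 20 bases, belonged to Rpl27a (ratio 0.01), and Rpl9, the highest gene (0.94), had none in the window.

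Of the 143 probes, 135 were tested, and 42 genes had more than 1 tested probe. The probes of such a gene differed by a median of 0.25. In 12 genes they differed in sign and in 6 by more than 1, up to 1.24. The 107 tested probes with a RefSeq accession and a mean log2 intensity of at least 11 had a median of 0.53 and were above 0 in 104 cases. In each of these 6 the low value came from a probe with a mean log2 intensity under 11. There were 15 tested probes that were designed on other accessions, such as cDNA clones, and were this dim. Their median was 0.00, but it was 0.35 in mouse 1 and -0.48 in mouse 2. Some RefSeq probes this dim also differed in sign from their gene's brightest probe. The dim Rps15a probe was at -0.27 ± 0.43 (0.90 on the brightest), the dim Rpl37 probe at -0.24 ± 0.12 (0.19) and the dim Rpl31 probe at -0.08 ± 0.01 (0.16). That of Rpsa, a small subunit protein also known as a laminin receptor, was at -0.02 ± 0.12, with 0.57 ± 0.41 on the brightest, and that of Rpl7l1 was at 0.27 ± 0.17 (-0.03).

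In the 3 dim clone probes with the widest gaps between the mice (Rpl11, Rpl9 and Rps28), both arrays of a mouse lay on the same side of 0. The Rpl11 clone probe had 0.46 and 0.37 in mouse 1 and -1.64 and -1.81 in mouse 2, whereas the bright Rpl11 probe had 0.56 and 0.53 as mouse means. Rpl11 with Rpl5 carries the small rRNA of the large subunit and can bind Mdm2. The Rpl9 clone probe had 0.79 and 0.46 in mouse 1 and -1.40 and -1.01 in mouse 2, and the Rps28 clone probe 0.29 and 0.41 in mouse 1 and -1.20 and -1.36 in mouse 2. The clone probes of Rpl13 (mouse means 0.23 and -1.28), Rps13 (0.03 and -1.12), Rps12 (0.53 and -0.82), Rps18 (0.16 and -0.65), Rps24 (1.19 and -0.18) and Rpl27a (0.74 and -0.48) had the same order, as had that of Rps21 (0.37 and -0.11). Mouse 2 was the higher on the remaining dim clone probes, which were those of Rps9 (0.25 and 0.60), Rps20 (0.38 and 0.44), Rpl21 (-0.08 and 0.09) and Rps4x (-0.22 and 0.24) and another of Rps24 (0.18 and 0.26). Mouse 1 exceeded mouse 2 by more than 1 on 8 of the 15 probes. It did so on 0 of the family's other tested probes, on 1.98% of 21785 other probes on the array, and on 5.56% of 4403 other dim clone probes. None of these probes passed the test by itself.

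For 3 of the 15 dim clone probes, the positions place the probe in a stretch of genome that a spliced probe of the same gene skips. No mm9 annotation was used here, so introns were read only from such gaps. The bright Rpl9 probe (chr5:65779884-65780334, mm9, minus strand) covers 60 bases in 2 pieces and skips 391 bases of genome, and the clone probe (chr5:65780200-65780259) lies inside the skipped stretch. The bright Rpl11 probe (chr4:135605885-135606207, minus strand) skips 263 bases that hold the clone probe (chr4:135605957-135606016). For Rps28 the clone probe (chr17:33960065-33960124, minus strand) lies in the 80 bases skipped by a bright probe. The clone probes of these 3 genes shared at most 6 bases in a row with the spliced probes that skip them. The sequences show the bright and the clone probe of Rpl9 and of Rpl11, and the clone probe of Rps28.
Rpl9 bright probe: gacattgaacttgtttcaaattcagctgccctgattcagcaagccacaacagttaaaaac
Rpl9 clone probe: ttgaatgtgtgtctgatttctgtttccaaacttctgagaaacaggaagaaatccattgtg
Rpl11 bright probe: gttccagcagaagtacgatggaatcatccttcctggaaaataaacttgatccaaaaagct
Rpl11 clone probe: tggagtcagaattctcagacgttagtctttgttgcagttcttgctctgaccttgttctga
Rps28 clone probe: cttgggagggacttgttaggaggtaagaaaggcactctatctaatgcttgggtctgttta
A gene's result here rests on its brightest probe. With the mean over its tested probes, 18 genes rose instead of 27 (4.9% of all genes), with a median of 0.49.

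**Figure D5:**
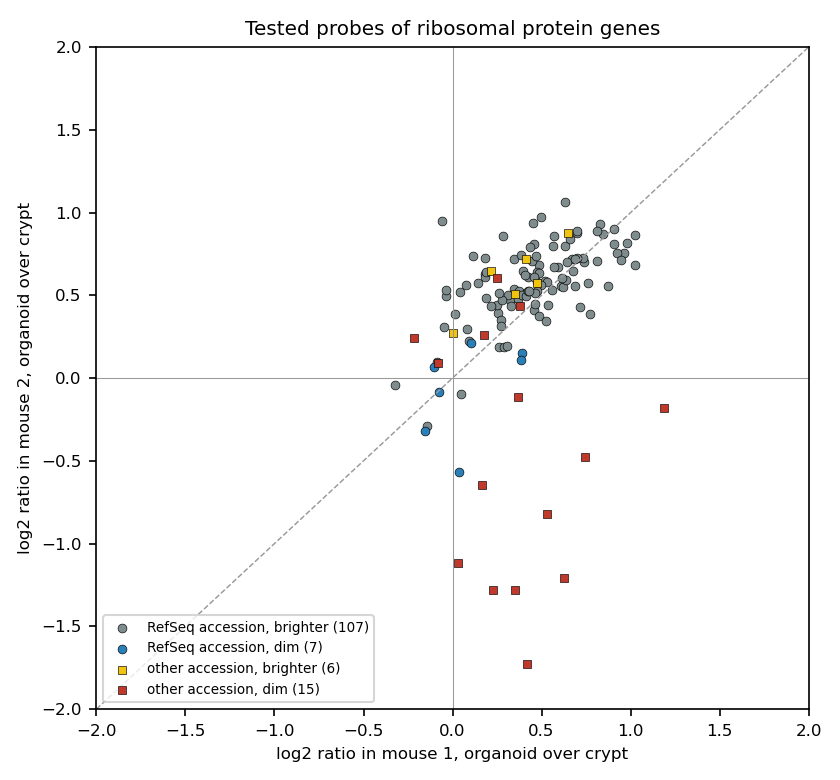
Log2 ratio of organoid over crypt in mouse 1 (horizontal axis) and mouse 2 (vertical axis) for the 135 tested probes of ribosomal protein genes, by accession type and brightness; the dashed line marks equal values. Most probes cluster above 0 in both mice, while 8 of the 15 dim probes on other accessions (red squares) lie more than 1 below the line.

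Marker RNAs of several cell types also differed between organoids and crypts. Of 6 enterocyte markers 5 were lower in organoids, with summed normalized intensities of 108254 to 172879 in organoids and 325284 to 350544 in crypts. All 3 Paneth cell markers were lower, at 24352 to 52563 in organoids and 213729 to 309750 in crypts. Of 11 white blood cell markers tested 2 were lower (3007 to 3498 in organoids, 6406 to 10349.5 in crypts), and Cd3g was well above background in 0 of 4 organoid channels. Of 4 stem cell markers Lgr5 (2.29 ± 0.05) and Smoc2 (0.95 ± 0.17) rose. The other 2 lay below 0 (down to -0.22) and did not pass. Of 6 cycling markers none passed (median -0.13). Of 8 epithelial markers 4 fell and 1 rose. Of 12 markers of stroma, muscle and vessels, 4 could be tested and 1 fell. The part of these differences in the ribosomal protein ratios was not tested.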

How the data were processed

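Agilent 2-colour arrays were measured for crypts and organoids of 2 mice, 4 arrays in all. The scans were quantified in Agilent Feature Extraction, version 10.2.1.3 per the file headers and 9.5.3 per the submitters' processing notes. For RNA isolation, Trizol stands in the labels and an RNeasy kit in the design text. Of the deposited intensity columns, each spot's mean signal and its local background median were used. The deposited log10 ratio sets Cy5 over Cy3 as computed in Feature Extraction, per the file headers. The authors' matrix holds log2 ratios of Cy5 over Cy3, as set against the scanner ratios (r from 0.978 to 0.991), each column with a median of 0. The sources used here do not say how the authors centred it.

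Normalization used limma 3.58.1 (R 4.3.3): normexp with an offset of 50 for the background, then loess within each array, in which control spots had weight 0. Those spots marked as outliers were dropped and repeated spots averaged. The dye labels gave each ratio's direction, organoid over crypt. Testing needed an unmarked spot of the probe on every array. It also needed a signal well above background in the 4 organoid or the 4 crypt channels (51.5% to 61.7% of probes per organoid channel and 53.7% to 67.2% per crypt channel were). This left 21920 of 41174 probes and 15538 genes, each represented by its brightest tested probe. Names came from RefSeq (24844 probes matched) or the file. For each gene lmFit and eBayes compared the 2 mouse means with 0 (a two-sided test on 1 residual and 4.20 prior degrees of freedom), adjusted by Benjamini-Hochberg, at 0.05. The code was tested on simulated data. Same-numbered arrays hold RNA of the same mouse, and their deviations from the group means correlated with r = 0.63.

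Named were every member that passed, the 5 highest and 5 lowest, the stalk genes, the paralogs with their parents, members whose probes differed in sign or by more than 1, untested members, and up to 4 passing genes of each list with the largest change, with Fau, Rack1, Eef1a1, Eef2, Npm1 and Myc in any case. Rps4x, Rps6, Rps9, Rps21, Rps26 and Rpl10 were named after their values were seen. Rpl5 is named only as the partner of Rpl11. A few genes that the rule selects are not reported here by name. The members and lists were chosen with earlier results of these data known. The comparison by probe accession and intensity, with its limit of 11, and the search for skipped stretches were chosen after the values were seen. The number of arrays and mice limits the precision.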

Additional observations from a re-analysis of the deposited data

How the results depend on the processing

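Every alternative kept a positive median for the ribosomal protein genes and found 0 of them lower, and none of the 27 genes that passed turned its direction. The count of genes higher was 27, and it was 0 with median centring and 0 with the scanner's ratios. It was 0 with the deposited matrix (664 and 782 of all genes passed there as higher and lower) and 6 when dim probes were kept. The dye-effect fit of 4 arrays gave 61, with the 2 arrays of a mouse counted as independent. The count was 52 on the organoid-in-Cy5 arrays and 1 on the organoid-in-Cy3 arrays. Other alternatives gave 18 to 40. The median, 0.55, was 1.04 with median centring (0.87 relative to all genes, whose median moved to 0.17), 0.40 with the scanner's ratios, 0.86 on the organoid-in-Cy5 arrays and 0.22 on the organoid-in-Cy3 arrays. Without each mouse in turn it was 0.46 to 0.59. With the mouse as a random replicate block over the 4 arrays, 30 genes were higher, 19 of them among the 27. The cause of these differences was not tested. A slide or scan block could not be fitted, because all 4 arrays lie on 1 slide from 1 scan. With 1 mouse left out, only values can be given. Limits are 2 mice, a family at the bright end of the array, whose ratios moved with the normalization, and dye-dependent ratios.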

Other observations

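The array also carries 36 probes with other names whose description mentions a ribosomal protein, such as predicted copies and transcript clusters, a set chosen after the values were seen. Of the 31 tested, 20 were above 0 and the median was 0.34, against 0.01 over all probes tested. By themselves 3 passed as higher in organoids and 1 as lower, where 4.50% of all probes passed as higher. Of the 143 probes of the family, 6 shared a run of at least 25 bases with a probe of another name, and 2 were placed in mm9 on another chromosome than the RefSeq gene (Rpl10 on chromosome 8, Rpl12 on chromosome 10).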
